A study of Mus musculus with 9 samples.

Results

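The pro-apoptotic members of the BCL2 family were followed through 9 expression arrays of pre-B cells from mice, a stage at which developing B lymphocytes assemble their antibody light chains. All probe sets whose annotated gene symbol is Bmf, Bcl2l11, Bid, Bad, Bik, Bbc3, Pmaip1, Bak1 or Bok were taken, whatever their values. This gave 21 of the 45101 probe sets on the array, for 9 of the 10 genes listed. Bax, the other listed gene, was not analysed here. All cells were labelled IRF4,8 -/-, that is, null for the transcription factors IRF4 and IRF8. The low IL-7 group (3 arrays) was cultured with little interleukin 7, the cytokine on which B cell precursors depend for survival and division. The +IRF4 group (3 arrays) had IRF4 put back and was cultured in high IL-7, and the high IL-7 group (3 arrays) had the same IL-7 without IRF4. The labels give 5 ng of IL-7 for high and 0.25 ng for low but disagree on the volume, so no concentration is stated. They name neither the means by which IRF4 was put back nor an array given an empty carrier, so the procedure and IRF4 itself cannot be told apart. The labels do not say whether the arrays of a group stem from separate cultures or animals. P-values therefore measure only the spread between these arrays, which may be technical.

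Programmed death through mitochondria is set by the balance within the BCL2 family. BH3-only proteins, such as BIM, BMF, BID, BAD, BIK, PUMA and NOXA, sense stress and bind pro-survival relatives such as BCL2, BCL-xL and MCL1 through a short helix, the BH3 domain. The effectors BAX and BAK, once freed or activated, open pores in the outer mitochondrial membrane and release cytochrome c, which sets off the caspases. In lymphocytes BIM, the product of Bcl2l11, is well known as a mediator of death after cytokine loss.

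Promoter sequences are shown for the genes whose signal moved most, Bmf and Bid, and for Bcl2l11. They come from RefSeq (build GRCm38.p6) and cover the 250 bases before each listed transcription start, on the gene's own strand. The table held such windows for 8 of the 10 genes. Bmf had 3 listed starts, all on the minus strand: window 1 at chr2:118544588-118544837, window 2 at chr2:118549687-118549936 and window 3 at chr2:118547600-118547849. The Bid window lies at chr6:120916825-120917074 on the minus strand. The first of 2 Bcl2l11 windows lies at chr2:128125788-128126037 on the plus strand. Capitals mark matches to any of 4 motifs searched on both strands: a FOXO site (GTAAACA), an ETS-IRF composite element (GGAA, then any 2 bases, then GAAA), an IRF element (GAAA, then any 2 bases, then GAAA) and a STAT site (TTCNNNGAA, which reads the same on both strands). The composite and IRF motifs overlap in their second part.
Bmf window 1: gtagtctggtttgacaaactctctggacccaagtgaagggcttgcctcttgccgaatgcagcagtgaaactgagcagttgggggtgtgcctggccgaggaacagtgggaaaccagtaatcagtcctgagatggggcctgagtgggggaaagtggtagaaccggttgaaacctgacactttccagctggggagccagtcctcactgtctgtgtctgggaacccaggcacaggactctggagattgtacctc
Bmf window 2: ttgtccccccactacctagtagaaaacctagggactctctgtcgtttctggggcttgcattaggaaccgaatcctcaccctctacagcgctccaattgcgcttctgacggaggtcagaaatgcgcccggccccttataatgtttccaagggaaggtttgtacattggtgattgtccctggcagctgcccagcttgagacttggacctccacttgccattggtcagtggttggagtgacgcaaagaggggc
Bmf window 3: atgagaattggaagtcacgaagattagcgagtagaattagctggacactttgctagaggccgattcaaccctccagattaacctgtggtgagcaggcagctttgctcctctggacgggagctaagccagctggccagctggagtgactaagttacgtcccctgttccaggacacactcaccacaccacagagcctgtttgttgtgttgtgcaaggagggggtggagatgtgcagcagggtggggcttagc
Bid: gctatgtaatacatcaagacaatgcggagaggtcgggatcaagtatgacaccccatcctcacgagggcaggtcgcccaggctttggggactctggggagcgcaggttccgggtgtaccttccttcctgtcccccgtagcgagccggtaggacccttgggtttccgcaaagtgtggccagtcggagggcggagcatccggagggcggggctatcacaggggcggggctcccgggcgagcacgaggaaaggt
Bcl2l11 window 1: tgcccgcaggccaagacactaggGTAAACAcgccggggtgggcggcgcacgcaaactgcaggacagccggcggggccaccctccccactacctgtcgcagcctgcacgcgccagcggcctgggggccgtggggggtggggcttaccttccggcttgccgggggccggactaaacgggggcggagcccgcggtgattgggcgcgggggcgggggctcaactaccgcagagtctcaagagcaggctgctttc
The single match in these 5 windows was a FOXO site in Bcl2l11, which began 227 bases before the start. The second Bcl2l11 window held no match. Among the windows of the other members with a probe set, window 2 of Bbc3, whose signal passed no test, held a FOXO match 167 bases before the start, and no other motif was found. Of 32851 windows of this length in the table, 3.17% held the FOXO letters, 2.3% the composite element, 2.98% the IRF element and 7.02% the STAT letters. A match is a description of the letters and no evidence of binding, and no match says only that these letters are not in the window.

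The arrays carried the marks of B cell precursors. All 8 precursor markers with a probe set (of 9 listed), among them Cd79a, Ebf1 and Vpreb1, were above the intensity floor used here (108, the 40th percentile of the probe set means) in every array. Their summed intensity was 74135 to 75818 in low IL-7, 58234 to 61461 in +IRF4 and 55907 to 63339 in high IL-7. Of 12 stromal markers, 7 to 10 were above the floor in low IL-7, 9 to 11 in +IRF4 and 11 in each high IL-7 array, and Lum was below it in every array. Their summed intensity was 11536 to 14553 in low IL-7, 12246 to 23920 in +IRF4 and 12321 to 30484 in high IL-7. Vim alone gave 6463 to 9871 of each sum. The mean log2(intensity + 16) of the 12, in which each marker counts alike, was 7.90 to 8.67 in low IL-7 and 8.21 to 10.11 in +IRF4. In high IL-7 it was 8.87 to 10.44, without overlap with low IL-7. The sum of 8 myeloid markers was 2057 to 2350 in low IL-7, 942 to 1099 in +IRF4 and 1176 to 1410 in high IL-7. That of 5 T cell markers was 907 to 1086 in low IL-7, 817 to 990 in +IRF4 and 820 to 905 in high IL-7. All 3 erythroid markers stayed below the floor, with sums of 221 to 238 in low IL-7, 238 to 257 in +IRF4 and 239 to 254 in high IL-7. Among the defining markers Cd3d and Cd3g of T cells and Mpo, Elane, S100a8 and S100a9 of myeloid cells were below the floor in every array, while Cd3e, Cd4, Cd8a, Csf1r and Lyz2 were above it in every array. Fcer1g, a receptor subunit of myeloid cells, was at 1019 to 1431 in low IL-7, 140 to 158 in +IRF4 and 332 to 573 in high IL-7. Itgam was at 172 to 259 in low IL-7, 43.1 to 69.8 in +IRF4 and 37.5 to 50.2 in high IL-7. No summed list was at 0, and the part of these other cell types in the results below was not tested. In such bulk RNA, fewer cells of a type and less RNA per cell cannot be told apart. The 18S control signal, on the scale of log2(intensity + 16), was 6.41 in +IRF4 replicate 3 and 6.53 in high IL-7 replicate 1, against 7.70 to 8.49 in the other arrays. Irf4 was read by 2 probe sets. Probe set 1421174_at, at 1088, 1379 and 2543 in +IRF4 and 381, 202 and 261 in high IL-7, was higher in +IRF4 (2.45, SE 0.28, adjusted p = 0.000861), while 1421173_at differed by -0.40 (adjusted p = 0.0438). Probe set 1421173_at was bright in all arrays, at 7161 to 7926 in low IL-7, 3702 to 4256 in +IRF4 and 4719 to 5791 in high IL-7. Both Irf8 probe sets were bright too, at 3137 to 4426 in low IL-7, 1966 to 3120 in +IRF4 and 2250 to 3405 in high IL-7. Where these probes lie relative to the deleted part of each gene is not known here, so their signal does not check the labelled genotype.

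The low IL-7 arrays were set against the high IL-7 arrays to ask which members respond to the cytokine. A Bmf probe set rose 16.9-fold, all 3 Bid probe sets and 3 of 5 Bcl2l11 probe sets fell, and the other members did not pass the test. Differences and folds were taken after adding 16 to each intensity, on the log2 scale, so that changes of dim probe sets are understated, and a probe set was called at limma's Benjamini-Hochberg adjusted p under 0.05 over all 45037 non-control probe sets. By this rule 1 of the 21 member probe sets rose and 6 fell, against 12.1% and 11.3% of all probe sets, or 23.5% called in either direction. Of the 21, 20 had a mean over the 9 arrays above the floor, and 33.5% of all probe sets above it were called, so the share of members called is close to that of other probe sets of such brightness. The arrays of both groups did not overlap for 12 of the 21, against 38.3% of all probe sets. The median difference of the members was -0.07, beside 0.02 over all probe sets.

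**Figure D1:**
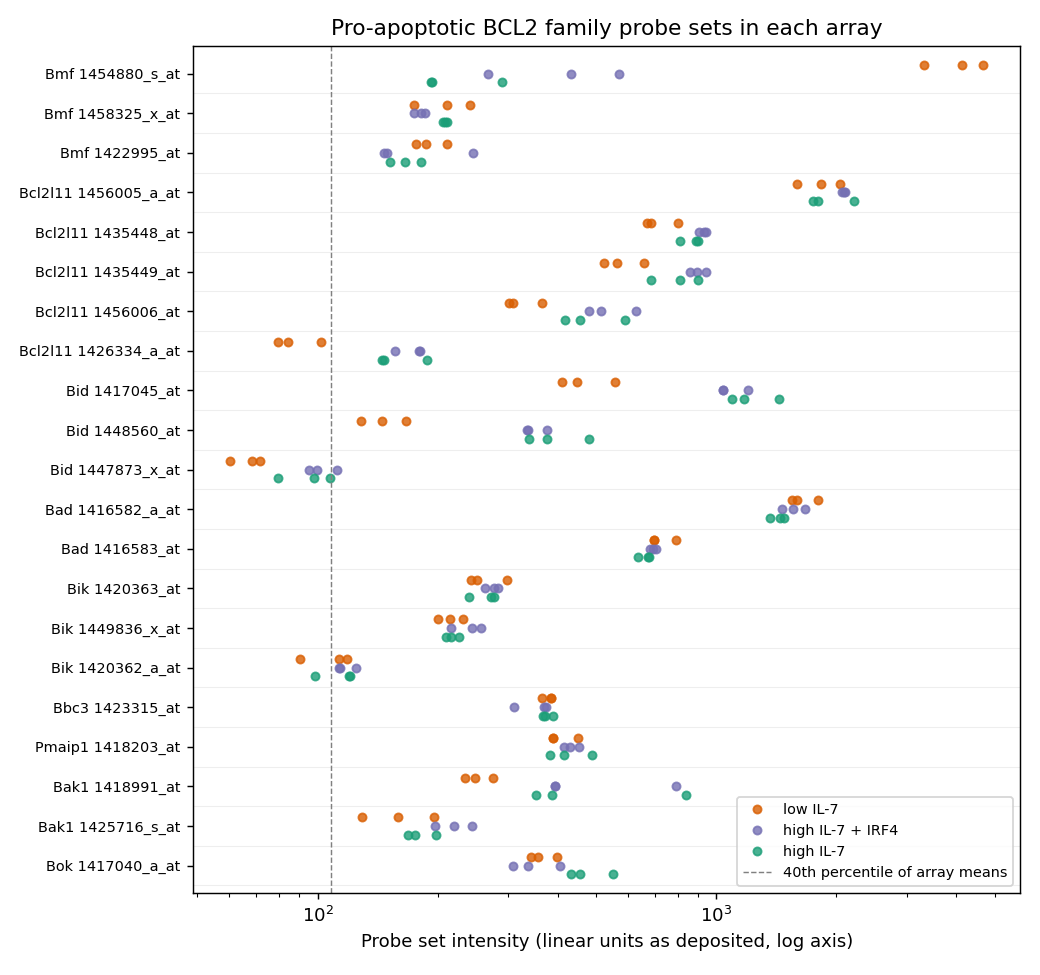
Intensity of each of the 21 member probe sets (rows) in each array (points, log axis), with low IL-7, +IRF4 and high IL-7 drawn from top to bottom within a row, and the floor of 108 as a dashed line. The low IL-7 arrays of Bmf 1454880_s_at lie at 3314 to 4660, apart from all others, and those of Bid lie to the left of both other groups.

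Bmf encodes a BH3-only protein that is held by a dynein light chain at the cytoskeleton in healthy cells. Its probe set 1454880_s_at read 3314, 4660 and 4141 in low IL-7, 568, 433 and 267 in +IRF4, and 194, 291 and 193 in high IL-7. Every low IL-7 array was above every array of the other groups. The rise over high IL-7 was 4.08 (SE 0.24, limma adjusted p = 9.42e-07), and without any 1 array it lay between 3.97 and 4.26. The other Bmf probe sets did not show it. Probe set 1458325_x_at read 211, 175 and 242 in low IL-7 and 211, 209 and 206 in high IL-7 (-0.01, 95% interval -0.24 to 0.23). Probe set 1422995_at read 176, 187 and 212 in low IL-7 and 166, 181 and 152 in high IL-7 (0.19, 95% interval -0.17 to 0.55). In the array maker's naming, an s marks probes that can match transcripts of more than 1 gene and an x marks probes similar to unrelated sequence, so the rise rests on a probe set that need not be specific to Bmf. Whether the 3 probe sets read different transcripts was not tested.

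Bid encodes the BH3-only protein that caspase 8 cuts to carry death receptor signals to mitochondria. Probe set 1417045_at read 558, 447 and 410 in low IL-7, 1203, 1038 and 1040 in +IRF4, and 1432, 1094 and 1176 in high IL-7. Probe set 1448560_at read 167, 145 and 129 in low IL-7, 375, 338 and 335 in +IRF4, and 481, 340 and 376 in high IL-7. For both, low IL-7 lay below all other arrays, while +IRF4 and high IL-7 overlapped. Both fell in low IL-7 to a like extent, by 1.36 (SE 0.14, adjusted p = 2.7e-05) and by 1.34 (SE 0.13, adjusted p = 2.44e-05), or 2.57-fold and 2.53-fold. The dim probe set 1447873_x_at, whose mean was below the floor, read 60.5, 71.7 and 68.6 in low IL-7 and 79.7, 97.8 and 107 in high IL-7. It fell by 0.41 (SE 0.10, adjusted p = 0.0127), but not when low IL-7 replicate 1 (adjusted p = 0.0509) or high IL-7 replicate 3 (adjusted p = 0.0603) was left out. The 3 probe sets share a gene and are not independent readings of it.

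Bcl2l11 encodes BIM, whose main spliced forms carry the BH3 domain. Its 5 probe sets gave unlike sizes of change. Probe set 1426334_a_at read 102, 84.5 and 79.7 in low IL-7, 156, 180 and 180 in +IRF4, and 188, 146 and 147 in high IL-7, so every low IL-7 array was below the rest and below the floor. It fell in low IL-7 by 0.75 (SE 0.12, adjusted p = 0.000619). Probe set 1456006_at read 366, 310 and 302 in low IL-7 and 591, 455 and 416 in high IL-7. It fell by 0.55 (SE 0.15, adjusted p = 0.0177), but not when replicate 2 or 3 of low IL-7 was left out (adjusted p = 0.0656 and 0.0778) or replicate 1 of high IL-7 (adjusted p = 0.0585). Probe set 1435449_at read 657, 523 and 565 in low IL-7 and 898, 812 and 684 in high IL-7. It fell by 0.44 (SE 0.12, adjusted p = 0.0201), and the call was lost when replicate 2 or 3 of low IL-7, or 1 or 2 of high IL-7, was left out (adjusted p up to 0.0855). It was also lost without both arrays of low 18S signal (-0.36, adjusted p = 0.0617).

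The remaining Bcl2l11 probe sets did not pass. Probe set 1435448_at read 804, 670 and 688 in low IL-7 and 898, 887 and 809 in high IL-7, without overlap (-0.26, adjusted p = 0.0801), and passed with array weights (adjusted p = 0.0218) or without low IL-7 replicate 1 (-0.34, adjusted p = 0.0263). Probe set 1456005_a_at read 2039, 1594 and 1833 in low IL-7 and 1743, 2208 and 1794 in high IL-7, with overlap (-0.07, 95% interval -0.31 to 0.17). The unequal change can be read within each array. The log2 signal of 1426334_a_at minus that of 1456005_a_at was -4.12, -4.00 and -4.27 in low IL-7, -3.60, -3.43 and -3.42 in +IRF4, and -3.11, -3.78 and -3.47 in high IL-7. This pair was chosen after its values were seen. No Bcl2l11 probe set rose in low IL-7.

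**Figure D2:**
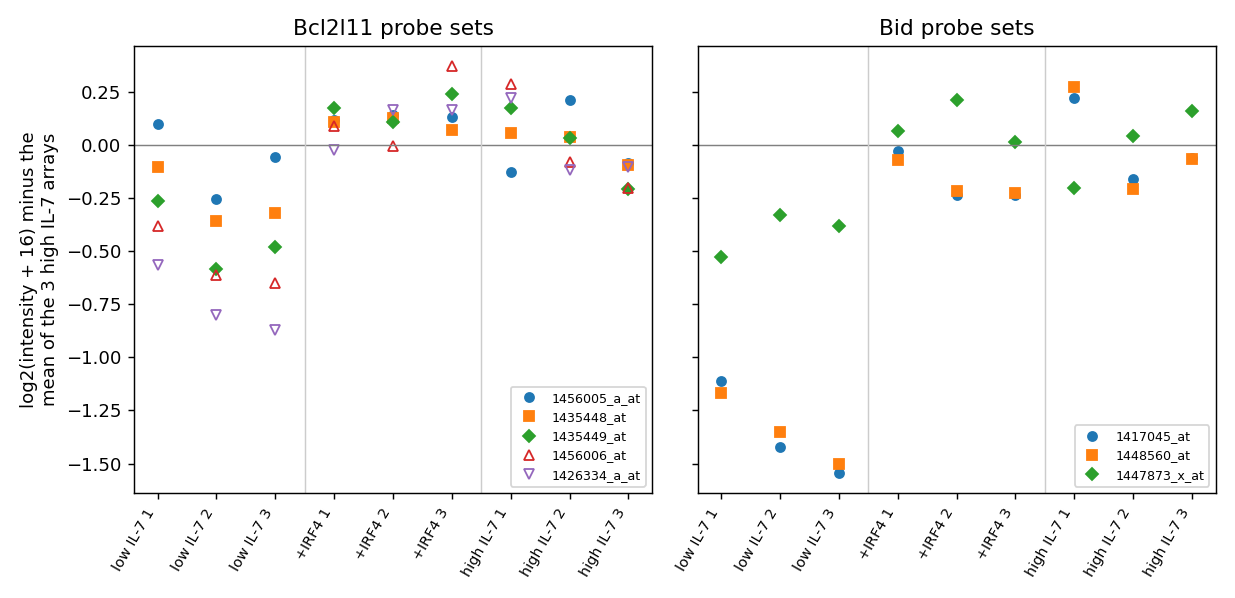
Each Bcl2l11 (left) and Bid (right) probe set in each array, as log2(intensity + 16) minus the mean of the 3 high IL-7 arrays of that probe set. In low IL-7 the Bcl2l11 probe sets spread from 1426334_a_at, with the lowest points, to 1456005_a_at, around 0, while 1417045_at and 1448560_at of Bid fall side by side.

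BAK and BOK are multi-domain members. BAK, from Bak1, is a pore-forming effector that sits on mitochondria, and BOK is a related protein found largely at the endoplasmic reticulum. Probe set 1418991_at of Bak1 read 275, 248 and 234 in low IL-7, 394, 394 and 794 in +IRF4, and 838, 388 and 353 in high IL-7. All low IL-7 arrays were lowest, and the 2 highest values were in the 2 arrays of low 18S signal. The difference of low from high IL-7 was -0.91 (SE 0.31, adjusted p = 0.0582). Without both those arrays, a setting chosen after seeing the data, it was -0.53 (SE 0.10, adjusted p = 0.00405). With the replicate number as a block it was called in the fit of the 6 low and high IL-7 arrays (adjusted p = 0.0044). It was not in that of all 9 (adjusted p = 0.0755). It passed in these 6 arrays without a block (adjusted p = 0.0364) and with array weights (0.0312). So it did among only the probe sets above the floor (0.0483), and with 1 of these a gene (0.0495). It did not pass with other scalings or no variance trend. Leaving out 1 array at a time, it passed without +IRF4 replicate 3, or without replicate 2 or 3 of high IL-7 (adjusted p = 0.0283, 0.0474 and 0.0387). It did not pass in the other 6 cases, among them each low IL-7 array, and was smallest without high IL-7 replicate 1 alone (-0.53, adjusted p = 0.179). The part of RNA quality in these values was not tested. The other Bak1 probe set, 1425716_s_at, read 129, 196 and 159 in low IL-7 and 198, 176 and 169 in high IL-7, with overlap (-0.17, adjusted p = 0.44).

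**Figure D3:**
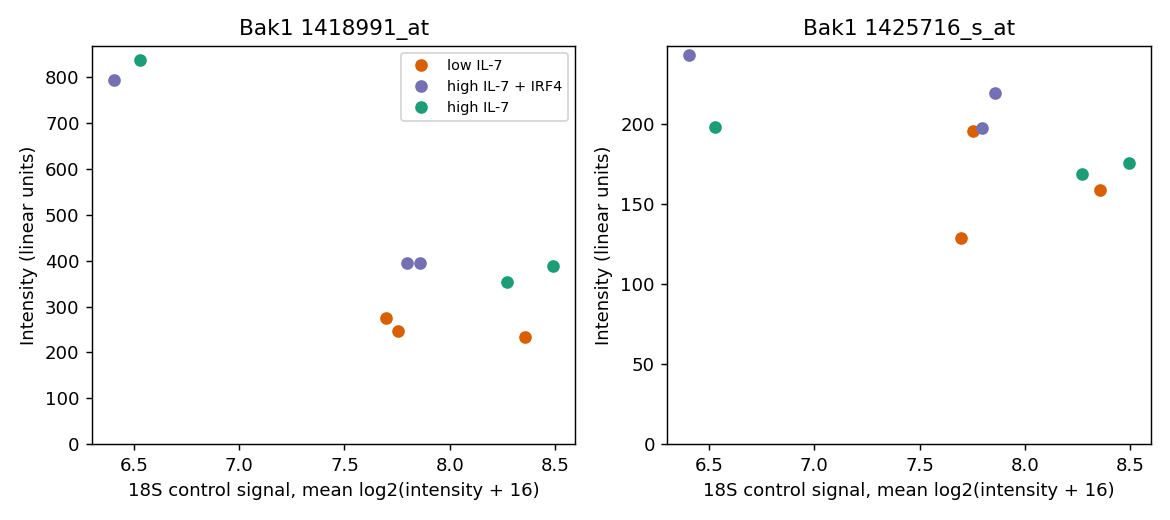
Intensity of the 2 Bak1 probe sets (vertical axes, from 0) against the 18S control signal (horizontal axis, mean log2(intensity + 16) of 3 control probe sets) in each array, coloured by group. For 1418991_at the arrays at 6.41 and 6.53 hold the values 794 and 838, above the other 7 arrays.

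Bok, read by 1417040_a_at, was at 398, 343 and 358 in low IL-7, 406, 309 and 338 in +IRF4, and 552, 431 and 455 in high IL-7. Both low IL-7 and +IRF4 lay below high IL-7 without overlap. Neither difference passed the test, at -0.37 (SE 0.13, adjusted p = 0.0581) for low IL-7 and -0.43 (SE 0.13, adjusted p = 0.143) for +IRF4. Blocked by replicate number, the low IL-7 difference passed (adjusted p = 0.0127 over 9 arrays and 0.0118 over 6), as did that of +IRF4 (adjusted p = 0.0417). The low IL-7 difference also passed among probe sets above the floor (adjusted p = 0.0409) and with 1 of these a gene (0.039). So it did with quantile normalization (0.0364), array weights (0.0265) or no variance trend (0.0486). It did not pass with other pseudocounts, the arrays scaled to 1 median, or only the 6 arrays without a block. Leaving out 1 array at a time, it passed in 2 of 9 cases (adjusted p up to 0.187). These were without +IRF4 replicate 1 or high IL-7 replicate 2 (adjusted p = 0.0426 and 0.0494).

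The other BH3-only genes stayed within narrow ranges. Bad encodes a protein that growth factor signals keep bound to 14-3-3 proteins. Its probe set 1416582_a_at read 1552, 1801 and 1591 in low IL-7 and 1361, 1477 and 1446 in high IL-7 (0.20, SE 0.09, adjusted p = 0.143), above without overlap. Probe set 1416583_at read 794, 699 and 696 in low IL-7 and 679, 638 and 676 in high IL-7 (0.13, adjusted p = 0.368), again without overlap. Bbc3 and Pmaip1, which encode PUMA and NOXA, are best known as genes switched on by p53. Bbc3 read 385, 366 and 384 in low IL-7, 370, 374 and 312 in +IRF4 and 373, 367 and 389 in high IL-7, and the 95% interval of the difference of low from high IL-7 was -0.20 to 0.22. Pmaip1 read 449, 390 and 389 in low IL-7, 430, 453 and 416 in +IRF4 and 487, 415 and 383 in high IL-7, with an interval of -0.30 to 0.18. Bik, a BH3-only protein of the endoplasmic reticulum, had 3 probe sets between 90.4 and 298 over all arrays, whose differences of low from high IL-7 lay between -0.07 and 0.00. The groups overlapped for all 5 probe sets of Bik, Bbc3 and Pmaip1.

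IRF4 with IL-7 held high was compared with high IL-7 alone. This comparison shares its high IL-7 arrays with the one above. None of the 21 member probe sets was called by limma, and 2 had an unadjusted p under 0.05 (Bmf 1454880_s_at and Bok). Of all probe sets 1.66% were called, 0.953% higher and 0.711% lower, and of those above the floor 2.38%. Their groups did not overlap for 4 of the 21, against 17.8% of all. Differences ran from -0.43 for Bok to 0.82 for Bmf, with a median of 0.07 beside 0.00 over all probe sets. Bmf 1454880_s_at, at 568, 433 and 267 in +IRF4 and 194, 291 and 193 in high IL-7, overlapped between groups through +IRF4 replicate 3 and high IL-7 replicate 2 (0.82, SE 0.24, adjusted p = 0.148). It passed without +IRF4 replicate 3 (1.11, adjusted p = 0.0393) and with array weights (0.97, adjusted p = 0.0124). The intervals of the 3 Bid probe sets were -0.47 to 0.13, -0.46 to 0.12 and -0.13 to 0.32, and those of the 5 Bcl2l11 probe sets lay within -0.17 to 0.47. Falls of the sizes measured for Bid in low IL-7 lie outside the Bid intervals.

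**Figure D4:**
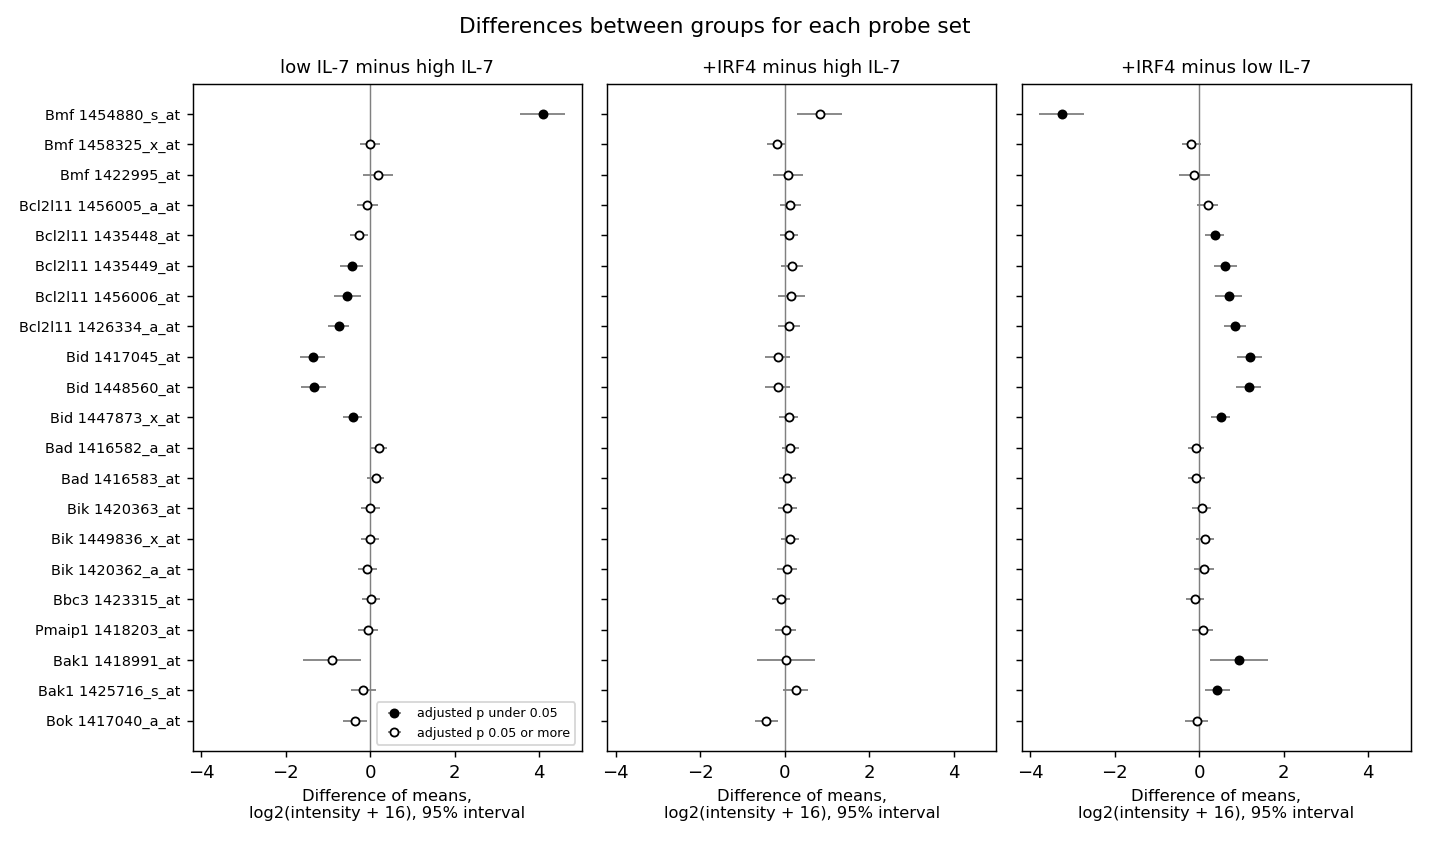
Difference of group means on the log2(intensity + 16) scale with its 95% interval for each member probe set (rows) in the 3 comparisons (panels). Filled points have an adjusted p under 0.05: 7 for low IL-7 against high IL-7, 0 for +IRF4 against high IL-7 and 10 for +IRF4 against low IL-7.

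The +IRF4 arrays were set directly against low IL-7, which tests the difference between both conditions. This uses arrays of both comparisons above and is no independent support for either. Bmf 1454880_s_at was 9.55-fold lower in +IRF4 (-3.26, SE 0.24, adjusted p = 4.8e-06). All 3 Bid probe sets were higher, 1417045_at by 1.19 (SE 0.14, adjusted p = 7.82e-05), 1448560_at by 1.17 and 1447873_x_at by 0.51. Of the Bcl2l11 probe sets 4 of 5 were higher, by 0.36 to 0.85, with 1426334_a_at the largest (SE 0.12, adjusted p = 0.000267) and 1456005_a_at at 0.20 (adjusted p = 0.232). The call of 1435448_at (0.36) was lost when replicate 2 or 3 of low IL-7, or 1 or 2 of +IRF4, was left out (adjusted p up to 0.0807). Both Bak1 probe sets were called, 1418991_at by 0.94 (adjusted p = 0.0482) and 1425716_s_at, which need not be specific, by 0.43 (adjusted p = 0.0371). The first lost its call without any 1 low IL-7 array or +IRF4 replicate 3 (adjusted p up to 0.178) and with the replicate block (adjusted p = 0.0638). It also lost it with 64 added to each intensity (adjusted p = 0.0554) or no variance trend (0.053). Without both arrays of low 18S signal it was called (0.62, adjusted p = 0.00177). The second lost it when replicate 1 or 3 of low IL-7, or 2 or 3 of +IRF4, was left out (adjusted p up to 0.13) and without both those arrays (0.36, adjusted p = 0.108).

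In all, 9 of the 21 were higher in +IRF4 and 1 was lower, against 10.7% and 14% of all probe sets, and 24.7% in either direction (34.6% of those above the floor). The arrays did not overlap for 11 of the 21, against 39.2% of all, and the median difference was 0.14 beside -0.01 over all. The 9 belong to 3 genes, Bcl2l11, Bid and Bak1. Among all called probe sets 43.4% were higher in +IRF4, or 55.2% with the arrays scaled to 1 median, while the members' counts were 9 and 1 under that scaling too. Bad, Bik, Bbc3, Pmaip1 and Bok did not pass, with differences from -0.10 for Bbc3 to 0.14 for Bik. The 2 other Bmf probe sets did not pass either, but 1422995_at was lower without +IRF4 replicate 3 (-0.34, adjusted p = 0.0434) and 1458325_x_at without low IL-7 replicate 2 (-0.30, adjusted p = 0.0499).

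Over the 9 arrays, the probe sets of other genes most like Bmf 1454880_s_at were those of Rag1, Rag2 and Steap4. Likeness was the root mean square difference of log2 values centred on each probe set's mean, at 0.40, 0.41 and 0.43, where Bmf itself varied by 1.79. Rag1 averaged 12.20 in low IL-7, 8.95 in +IRF4 and 7.53 in high IL-7, beside 11.97, 8.72 and 7.89 for Bmf. Rag1 and Rag2 encode the recombinase of antigen receptor genes, and Steap4 a metal reductase. Most like Bid 1417045_at (which varied by 0.62) were Suclg2, a succinate-CoA ligase subunit (0.06), Enoph1 (0.06) and Naa25 (0.07). Most like Bcl2l11 1426334_a_at (which varied by 0.40) were Kpna1, an importin, at 0.05, Wars, a tRNA synthetase, at 0.05 and Rbm19 at 0.06. These are descriptions over 9 arrays in 3 groups.

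Other genes of the pathway were read by their brightest probe set, for which 12.6% of 18193 genes were called higher and 13.5% lower in low IL-7 than in high IL-7, 1.24% and 0.627% in +IRF4 than in high IL-7, and 12.9% and 12.5% in +IRF4 than in low IL-7. Among the genes called below, Htra2 and Foxo1 were read by s probe sets, and Bcl2, Mtch2, Vdac1, Ywhae, Ywhag and Ywhaq by x probe sets. Those readings need not be specific to the gene. Of 5 pro-survival genes with a probe set, 3 rose and none fell in low IL-7. They were Bcl2l1, which encodes BCL-xL (0.65, SE 0.12, adjusted p = 0.00268), Bcl2 (0.38, adjusted p = 0.0107) and Mcl1 (0.35, adjusted p = 0.00152). Bcl2l2 stood at 0.41 (adjusted p = 0.0663), and the list median was 0.38, the value of Bcl2 itself. The x probe set of Bcl2 was dim, with a mean intensity of 116 over all arrays, just above the floor, so its rise is the least secure of these. With IRF4 none of the 5 passed against high IL-7, and Bcl2l2 was lower in +IRF4 than in low IL-7 (-0.81, adjusted p = 0.00163). Of 7 more distant BCL2 relatives 1 fell in low IL-7 and 1 with IRF4, each time Bnip3, a mitophagy receptor (-0.77 and -1.15, adjusted p = 0.0426 and 0.0427). Both calls were lost without any 1 of the high or low IL-7 arrays, and that of +IRF4 in 11 of 18 settings (adjusted p up to 0.144 and 0.176). None of the 7 passed between +IRF4 and low IL-7.

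Among partners and modifiers of these proteins 2 rose and 6 fell of 16 in low IL-7. Dynll2, the dynein light chain that binds BMF, fell by 0.94 (SE 0.11, adjusted p = 6.71e-05), Mtch2, a mitochondrial receptor for cut BID, by 0.75 (adjusted p = 0.000767) and Vdac2, which binds BAK, by 0.46 (adjusted p = 0.000287), while Ywhab, a 14-3-3 gene, rose by 0.19. The call of Ywhab was lost with the arrays scaled to 1 median and without a variance trend (adjusted p up to 0.137). Ywhaq, the other rise (0.19, adjusted p = 0.0499), lost its call in 15 of 18 settings. The other called 14-3-3 genes fell, Ywhag by 0.38 (adjusted p = 0.0134, called in 18 of 18 settings) and Ywhae by 0.33 (adjusted p = 0.03, called in 14 of 18). With the arrays scaled to 1 median, 0 of the 16 rose and 6 fell. The list median was -0.14. None of the 16 passed in +IRF4 against high IL-7, and 5 were higher and 1 lower in +IRF4 than in low IL-7, Dynll2 by 0.84 (adjusted p = 0.000171).

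Downstream of mitochondria, 2 of 10 apoptosome and caspase genes rose in low IL-7 and 3 fell. Casp6, an executioner caspase, rose by 1.14 (SE 0.14) and Apaf1, the apoptosome scaffold, by 0.62 (SE 0.11). Endog, a mitochondrial nuclease, fell by 1.12 (SE 0.10), Cycs, cytochrome c, by 0.62 (SE 0.06) and Aifm1 by 0.49. None of the 10 passed in +IRF4 against high IL-7, and 3 were higher and 2 lower in +IRF4 than in low IL-7. The medians of this list were -0.02, 0.02 and 0.02 in the 3 comparisons. Of 7 inhibitor of apoptosis genes and their antagonists 4 rose and 1 fell in low IL-7. Birc3 rose by 0.83 (SE 0.10), Birc2 by 0.73 and Xiap, which blocks caspases, by 0.50, and Htra2, a protease that counters them, fell by 1.08 (SE 0.12). The rise of Birc5, or survivin (0.21, adjusted p = 0.0412), was lost in 9 of 18 settings, the scaling to 1 median among them. Birc3 was the 1 gene of this list higher with IRF4 against high IL-7 (0.64, SE 0.10, adjusted p = 0.0073). Against low IL-7, 1 was higher and 2 were lower in +IRF4.

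Of 11 transcription factors known to act on genes of the family 4 were higher and 2 lower in low IL-7 than in high IL-7 (median 0.19). The 4 higher include Irf4, for which the cells are labelled null, by its brighter probe set 1421173_at (0.57, adjusted p = 0.000502). Its other probe set, 1421174_at, stood at 0.04 (adjusted p = 0.948). Foxo1 rose by 1.49 (SE 0.09, adjusted p = 8.37e-07) and Ikzf1 by 0.47, while Myc fell by 2.66 (SE 0.17) and Atf4 by 1.13 (SE 0.11). Foxo3, a factor known to raise Bcl2l11, stood at 0.13 (SE 0.35, adjusted p = 0.843). Ikzf1 was higher and the brighter Irf4 probe set lower with IRF4 against high IL-7 (0.74 and -0.40), and the Irf4 call was lost in 11 of 18 settings (adjusted p up to 0.159). In +IRF4 against low IL-7, 3 of the 11 were higher and 4 lower, with Foxo1 at -1.24 (adjusted p = 2.79e-06) and Myc at 2.27. With the arrays scaled to 1 median, 4 were higher and 2 lower. Irf4 counts among the 4 lower by its brighter probe set 1421173_at (-0.98), while 1421174_at was 2.42 higher in +IRF4. The lists were chosen with earlier results of these data known.

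**Figure D5:**
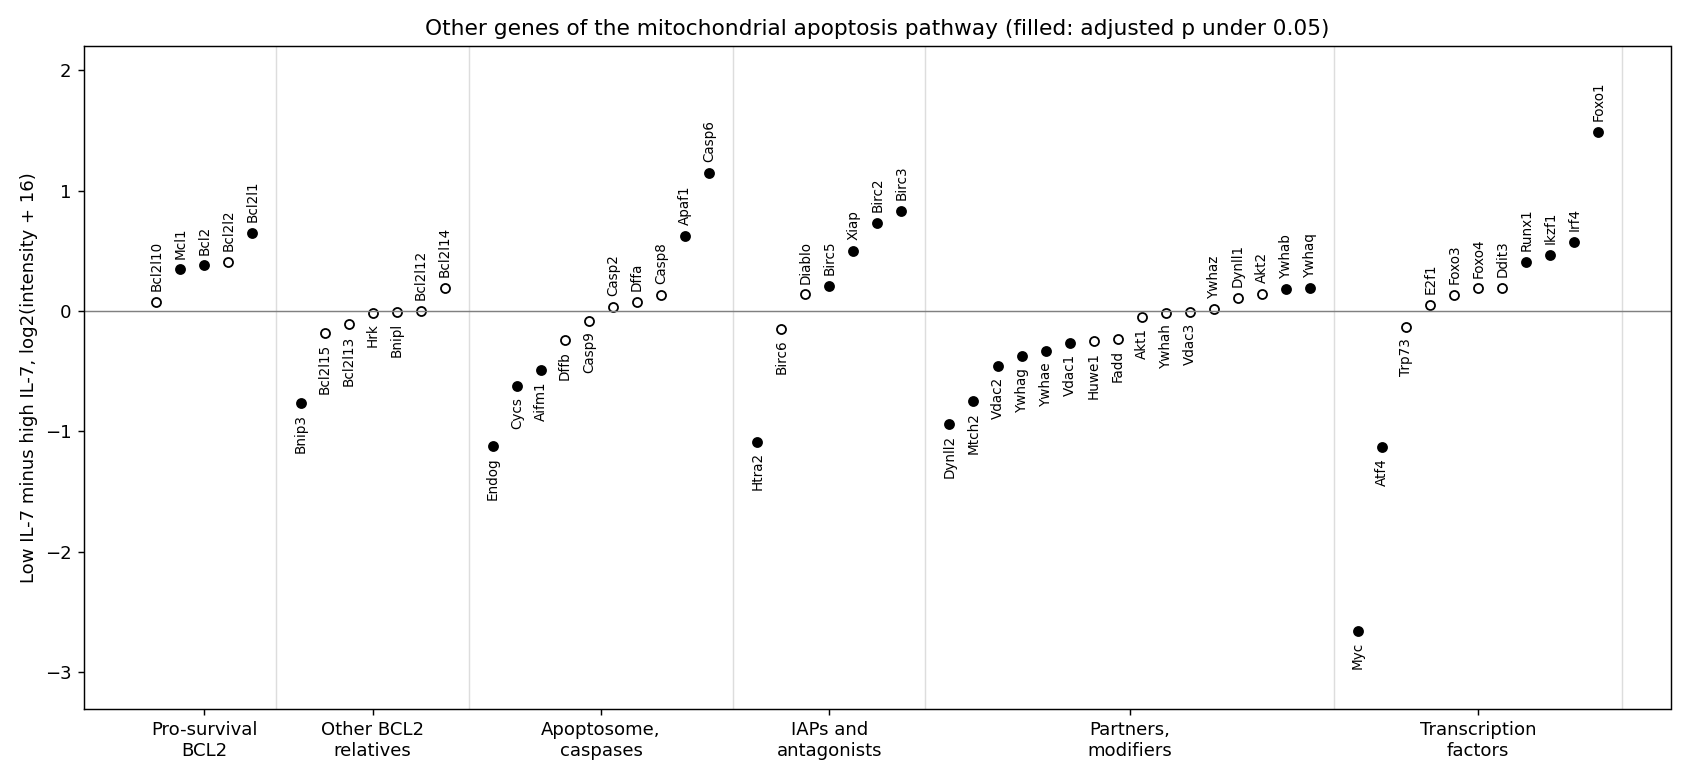
Low IL-7 minus high IL-7 on the log2(intensity + 16) scale for each gene of the 6 pathway lists (brightest probe set, 1 point a gene, sorted within a list), filled where the adjusted p is under 0.05. Foxo1 at 1.49 and Casp6 at 1.14 are the highest points and Myc at -2.66 the lowest.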

How the data were processed

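Total RNA of 9 samples was measured on Affymetrix arrays, per the labels. The authors deposited a table of intensity on a linear scale, and their summary and scaling method is not given in the sources used. Values ran from 0 to 24762 and array medians from 140 to 151, so no scaling was added. No detection calls were used, and array number limits the precision. Replicates correlated with r from 0.986 to 0.996 and were counted separately. Groups came from the sample titles. Gene symbols came from the platform annotation, in which 34945 probe sets had 1 symbol, 932 several and 9160 none, besides 64 control probe sets.

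Group means of log2(intensity + 16) over all 9 arrays were fitted with limma 3.58.1 in R 4.3.3 (lmFit, eBayes with a trend) for all 45037 non-control probe sets, with Benjamini-Hochberg adjustment per comparison. The procedure was tested on simulated data with independent noise and planted shifts. Such data lack the correlated deviations of these arrays, so the test does not check the calls made here. Named were all member probe sets, up to 4 genes of smallest p in each pathway list, and the 3 probe sets most like chosen members. Aifm1, Birc5, Foxo3, Ywhae, Ywhag and Ywhaq, outside this rule, and the marker and Irf genes given by value were chosen after their values were seen. The members and lists were chosen with earlier results of these data known. Whether replicate numbers pair arrays is not known. Deviations from the group means correlated at 0.53, 0.35 and 0.19 between same-numbered low and high IL-7 arrays. Same-numbered pairs with a +IRF4 array gave -0.35 to 0.01. Differently numbered arrays of different groups gave -0.51 to 0.41, with 0.36 for low IL-7 replicate 3 and high IL-7 replicate 2. Alternatives were other pseudocounts, a filter, 1 probe set a gene, other scalings, no trend, array weights, fewer arrays and a replicate block. Figures were drawn with matplotlib 3.10.9.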

Additional observations from a re-analysis of the deposited data

How the results depend on the processing

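With 1 probe set a gene after the filter, fewer probe sets are tested: 4 of 9 members were called in low against high IL-7, 0 in +IRF4 against high IL-7 and 3 in +IRF4 against low IL-7, and 4801, 365 and 4666 of 12828 genes. In +IRF4 against high IL-7, array weights called 2 members (Bmf up, Bok down) and 2097 probe sets of all, where no weights gave 0 and 749. The replicate block called 1 (Bok), and a fit of only the 6 arrays called 365 of all. Leaving out both arrays of low 18S signal, chosen after seeing the data, called 460 of all. The causes were not tested. Leaving out 1 array at a time, members called ranged from 5 to 8 in low against high IL-7, 0 to 1 in +IRF4 against high IL-7 and 7 to 10 in +IRF4 against low IL-7. Over all probe sets the counts ranged from 7568 to 11147, 366 to 1054 and 7922 to 11860. In low against high IL-7 the replicate block called 8 members over 9 arrays and 9 over the 6 arrays of these groups. It added Bok and, over the 6, Bak1, and changed no other member call there. In +IRF4 against low IL-7 it called 9, without Bak1 1418991_at. Of 1242 values of single members under all alternatives, 1189 kept their direction and side of the threshold or were not called either way, 26 lost a call, 27 gained one and none called turned direction. The missing detection calls limit what can be said of the dim Bid and Bcl2l11 probe sets.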
